A study of Mus musculus with 49 samples.

Results

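Frontal cortex of 10 mice labelled AKO was set against frontal cortex of 10 vehicle-injected mice carrying a conditional human amylin transgene, 20 of the 49 libraries of the series. Members were taken by their titles: the AKO-labelled and the vehicle titles each cover 10 libraries. Per the labels, AKO stands for amylin knockout, both groups had been on a high fat diet for 4 months, and the brains of the injected mice were collected after 2 months. All 20 libraries share the tissue, the diet and a stranded poly(A) library kit. The remaining libraries come from transgenic mice given tamoxifen (10), WT mice on the diet for 4 months (10) and WT mice on the diet for 2 months (9), and are used below only to place single genes. The labels give no strain, sex, age, litter, batch or collection time, do not say which promoter drives the transgene or the recombinase, and report no injection of the AKO mice. The 2 groups therefore differ in engineered line and in injection at once, and these cannot be told apart. The titles carry numbers, used here to name replicates, and nothing says what a number stands for.

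Amylin is a peptide hormone that beta cells of the pancreas release together with insulin, and it is encoded by Iapp. It signals through the calcitonin receptor joined to receptor activity-modifying proteins, and in the brain it is known for reducing food intake. Human amylin, unlike mouse amylin, readily forms amyloid, which is why mice that express the human peptide are used as models.

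Reads of Iapp were present in every library labelled AKO and almost absent from every other library. The libraries labelled AKO held between 36 and 116 Iapp reads each, 596 reads in 462.2 M. The vehicle libraries held 1 Iapp read in 419.9 M, in replicate 16. The ratio of reads per sequenced read was 541, with an exact 95% interval of 96.8 to 21423 that covers counting error only. The groups did not overlap. The deposited scale is log2 of normalised reads plus 1, called the log2 level below. On it Iapp had 5.56, 5.74 and 6.17 as lowest, median and highest in libraries labelled AKO. Vehicle libraries had 0, 0 and 1.16, and the limma adjusted p was 5.1e-14. A tested gene had to pass a read filter in at least 10 libraries, and Iapp did so through the libraries labelled AKO alone. The adjusted p and the lack of overlap therefore restate that presence and are no separate support. The tamoxifen libraries and the WT libraries at 4 and at 2 months held 0 Iapp reads, which puts the libraries labelled AKO at least 204-fold, 176-fold and 182-fold higher, with 3 reads over each group as the limit a count of 0 allows. A knockout label and the presence of the targeted gene's reads go against each other, so the group is named by its label throughout. The reads could come from any part of the gene, so they do not show whether a functional transcript was made, and whether reads of the human transgene can be counted under Iapp was not tested. Of the other 7 tested genes of the amylin and calcitonin family, none passed the test. The receptor subunit Ramp3 differed by 0.28 on the log2 scale (SE 0.19), Calcrl by 0.15 (SE 0.10), Ramp2 by -0.17 (SE 0.08) and the peptide gene Adm by -0.46 (SE 0.23), libraries labelled AKO minus vehicle as in all differences below. The calcitonin receptor gene Calcr was not among the genes tested.

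Libraries labelled AKO held 31.7 to 75.6 M reads (median 39.8 M) and vehicle libraries 29.8 to 56.5 M (median 39.8 M). Excitatory cortical neuron markers were present in all 20, but not at equal levels. The summed normalised reads of 16 such markers were 104960 to 126824 in libraries labelled AKO and 77369 to 143697 in vehicle libraries. The median was 110284 in libraries labelled AKO and 132687 in vehicle libraries. Vehicle replicates 3 (77369) and 1 (95532) nevertheless had the lowest sums of all 20. Markers of other regions varied far more, and 4 vehicle libraries stood apart. Vehicle replicates 1, 3, 5 and 40 had the lowest striatal projection neuron sums, 18034 to 21386, and the other 6 vehicle libraries had 38549 to 84392, against 33995 to 112376 in libraries labelled AKO. The same 4 had the lowest myelinating oligodendrocyte sums, 93398 to 119619, against 122445 to 207372 in the other vehicle libraries and 145931 to 206295 in libraries labelled AKO. Vehicle replicates 1 and 3 also had the highest olfactory bulb sums, 68472 and 98324, where no other vehicle library passed 19876 and the highest library labelled AKO had 36272. Olfactory mucosa markers were highest in AKO replicates 14 and 19, with sums of 47535 and 34384, where the highest vehicle library had 21325. These sums move with several results below, and calls lost without the 4 vehicle libraries are named beside the results. In bulk tissue, fewer cells of a type and less RNA per cell cannot be told apart.

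**Figure D1:**
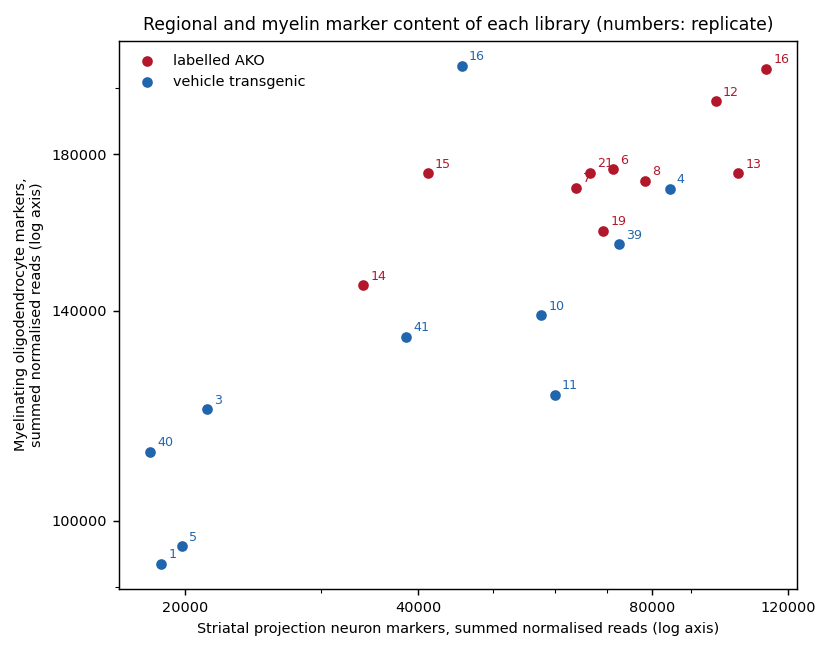
Summed normalised reads of 17 striatal projection neuron markers (horizontal, log axis) against those of 17 myelinating oligodendrocyte markers (vertical, log axis) in each of the 20 libraries; each point is a library, numbered by replicate, red for libraries labelled AKO and blue for vehicle. Vehicle replicates 1, 3, 5 and 40 lie lowest on both axes, with striatal sums of 18034 to 21386.

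Of 15174 genes tested, 1019 passed a limma adjusted p of 0.05, which is 6.72%. Of these, 582 were higher in libraries labelled AKO (3.84% of the genes tested) and 437 were lower (2.88%), and 3527 genes had an unadjusted p under 0.05. Most differences were small: the median absolute difference of the 1019 was 0.223 on the log2 scale. In 45 genes (0.297% of those tested) no library of one group overlapped the other group, 28 with every library labelled AKO above every vehicle library (0.185%) and 17 with every one below (0.112%). Without vehicle replicates 1, 3, 5 and 40 the count was 1335, of which 540 are among the 1019, and all 1019 kept their direction. With the levels of the striatal, myelin, olfactory bulb and choroid plexus lists as covariates the count was 19, 1006 of the 1019 kept their direction and their median absolute difference was 0.167. Those levels are themselves made of genes in the test and differ between the groups, so that fit removes any difference that runs along with them.

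**Figure D2:**
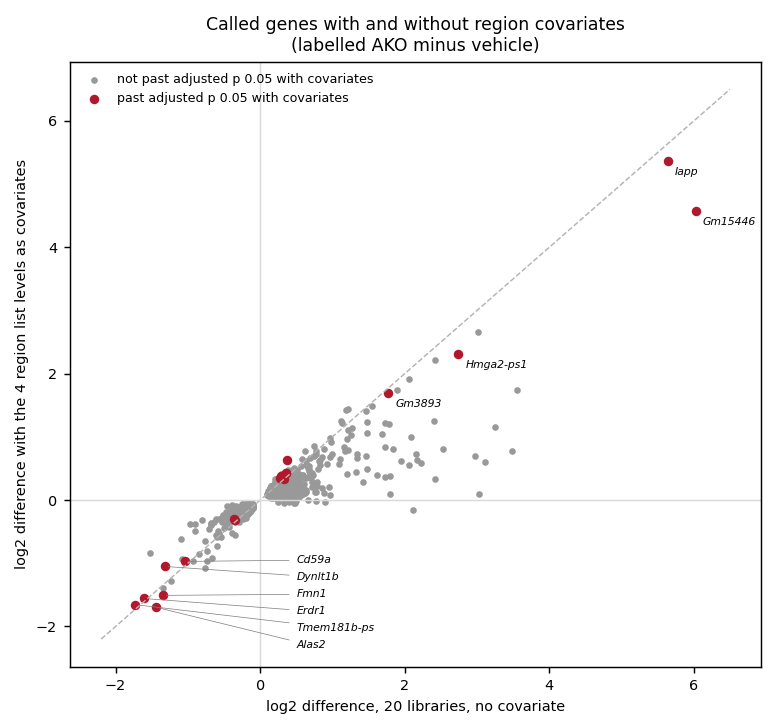
Log2 difference, libraries labelled AKO minus vehicle, of the 1019 called genes without covariates (horizontal) and with the 4 region list levels as covariates (vertical); the dashed line marks equal values, and red points passed adjusted p 0.05 with covariates. Iapp, Gm15446, Hmga2-ps1, Tmem181b-ps, Fmn1, Dynlt1b, Cd59a, Erdr1 and Alas2 lie near the line or keep a difference of over 0.9 in size, while many genes with differences of 1 to 3.5 fall toward 0.

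Several genes with large differences separated most libraries of the groups as steps. Other genes separated the groups without overlap by small differences and are given further below. Tmem181b-ps, a transcribed pseudogene of a transmembrane protein gene, had log2 levels of 10.78 to 11.55 (mean 11.31 ± 0.22 SD, n = 10) in libraries labelled AKO, against 12.73 to 13.49 (mean 13.04 ± 0.21 SD, n = 10) in vehicle libraries, a difference of -1.73 (SE 0.09, adjusted p = 7.8e-11). The groups did not overlap. Its neighbour Dynlt1b, a dynein light chain gene, had 5.37, 5.71 and 6.29 (lowest, median, highest) in libraries labelled AKO and 6.54, 6.84 and 8.08 in vehicle libraries, and differed by -1.32 (SE 0.18, adjusted p = 0.00037), again with no overlap. Tmem181c-ps, next to it in the RefSeq annotation of GRCm38.p6, was also called lower in libraries labelled AKO. These genes have near-identical copies beside them on chromosome 17, so the share of reads that belongs to each copy is uncertain.

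Cd59a, which protects cells from the membrane attack complex of complement, had 7.68, 8.05 and 8.59 in libraries labelled AKO, against 8.44, 9.06 and 9.58 in vehicle libraries. It fell in libraries labelled AKO by 1.05 on the log2 scale (SE 0.13, adjusted p = 0.00013), and only the edges of the groups overlapped. Wdfy1, an endosomal adaptor, had 9.20, 9.37 and 9.49 in libraries labelled AKO and 9.26, 10.82 and 11.81 in vehicle libraries, a difference of -1.52 (SE 0.20, adjusted p = 0.00032). All vehicle libraries but replicate 16 stood at 10.69 or above, and replicate 16 lay within the range of the libraries labelled AKO. The predicted gene Gm15446 showed the opposite step, with 7.03, 7.48 and 7.74 in libraries labelled AKO and 0, 1.07 and 6.56 in vehicle libraries (difference 6.03, SE 0.59, adjusted p = 7.8e-06). In reads, that was 115 to 315 per library labelled AKO, against 0 to 4 in the vehicle libraries other than replicate 16, which held 76. Gm15446 passed the read filter through the libraries labelled AKO and vehicle replicate 16, so its adjusted p is no separate support. Ide, the protease that breaks down insulin and also cleaves amylin and amyloid beta, had 11.75, 11.93 and 12.03 in libraries labelled AKO, against 10.90, 11.55 and 12.10 in vehicle libraries. It rose by 0.37 (SE 0.09, adjusted p = 0.021), and its lowest vehicle library was also replicate 16, the one with the single Iapp read. Leaving replicate 16 out gave 988 called genes, so the overall count did not rest on it.

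**Figure D3:**
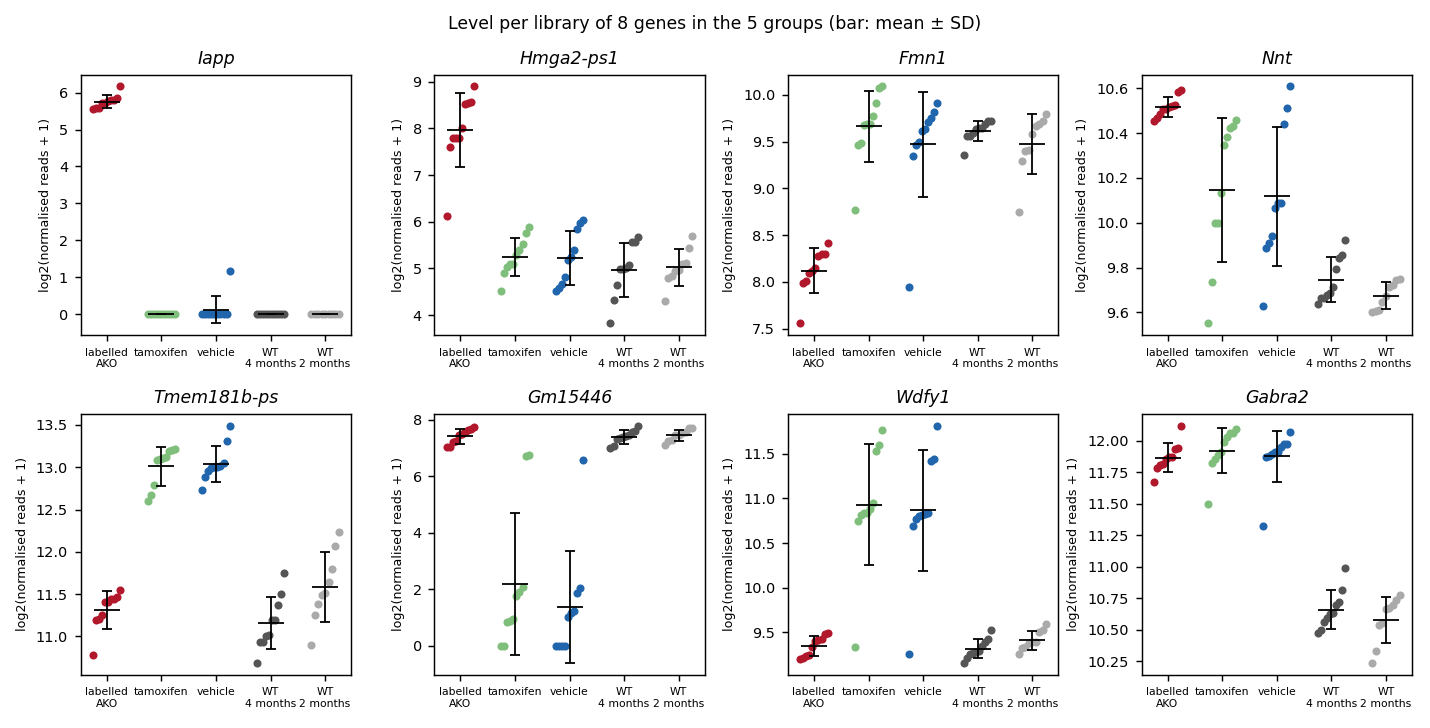
Log2 level per library of 8 genes in the libraries labelled AKO, tamoxifen, vehicle, WT at 4 months and WT at 2 months; each point is a library and the bars give mean ± SD. Iapp reads stand in libraries labelled AKO apart from 1 vehicle read, Hmga2-ps1 is highest there, with AKO replicate 6 (6.12) close to vehicle replicate 4 (6.04), and Fmn1 is low there and in vehicle replicate 3 (7.95). Tmem181b-ps, Gm15446 and Wdfy1 set most tamoxifen and vehicle libraries apart from the rest, and Gabra2 sets the 3 engineered groups above both WT groups.

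The same genes were then set beside the other groups, to show which groups stood away from WT. Engineered line and injection cannot be told apart here either. These comparisons share libraries with the one above and with each other, so they are not independent of it. Background counts were 120 called genes for libraries labelled AKO against WT at 4 months (0.790% of those tested, 0.283% higher and 0.507% lower), 938 for vehicle against WT at 4 months (6.20%, of which 2.59% higher and 3.61% lower), 1473 for libraries labelled AKO against tamoxifen (9.60%, of which 5.56% higher and 4.04% lower) and 0 for tamoxifen against vehicle (0.00%, with 503 of 15270 genes at an unadjusted p under 0.05 by limma). For Tmem181b-ps the libraries labelled AKO differed from WT by 0.16 (SE 0.11, adjusted p = 0.56) and the vehicle libraries differed from WT by 1.88 (SE 0.11, adjusted p = 1.9e-09). Cd59a gave 0.10 (SE 0.15, adjusted p = 0.81) for libraries labelled AKO and 1.14 (SE 0.15, adjusted p = 0.00028) for vehicle libraries, each against WT. Wdfy1 gave 0.03 (SE 0.05, adjusted p = 0.85) for libraries labelled AKO and 1.55 (SE 0.20, adjusted p = 0.00025) for vehicle libraries. In these genes and in Dynlt1b and Gm15446, the libraries labelled AKO lay within or close to the WT range and most tamoxifen and vehicle libraries stood away from it. The exceptions for Wdfy1 were tamoxifen replicate 21 at 9.33 and vehicle replicate 16 at 9.26, both inside the WT range at 4 months of 9.16 to 9.52. For Gm15446, tamoxifen replicates 21 and 27 stood at 6.72 and 6.74 and vehicle replicate 16 at 6.56, close to the lowest WT library at 4 months at 6.99.

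The reverse pattern was seen in Fmn1 and Hmga2-ps1. Fmn1, a formin that nucleates actin filaments, had 7.55, 8.13 and 8.41 in libraries labelled AKO, against 7.95, 9.62 and 9.92 in vehicle libraries, a difference of -1.35 (SE 0.18, adjusted p = 0.00032). The overlap came from vehicle replicate 3 alone, since the next vehicle library stood at 9.34. Against WT at 4 months the Fmn1 difference was -1.49 (SE 0.08, adjusted p = 3.5e-12) for libraries labelled AKO and -0.14 (SE 0.17, adjusted p = 0.70) for vehicle libraries. No other of the 11 formin genes tested passed. Hmga2-ps1, a pseudogene of a chromatin protein gene, had 6.12, 7.90 and 8.90 in libraries labelled AKO and 4.51, 5.21 and 6.04 in vehicle libraries, with no overlap (difference 2.74, SE 0.29, adjusted p = 1.8e-05), and reads of its parent gene can be shared with it. Fmn1 and Cd59a both lie on chromosome 2, and of 145 other tested genes within 10 Mb of Fmn1, 15 were called (10.3%, against 6.72% of all genes), Cd59a among them.

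Gabra2 and Nnt were taken up because earlier results of these data name them. Gabra2, the alpha 2 subunit of the GABA-A receptor, had 11.67, 11.86 and 12.12 in libraries labelled AKO and 11.32, 11.91 and 12.07 in vehicle libraries. The difference was -0.01 (SE 0.07, adjusted p = 0.96) and its sign turned under several settings. Both lines stood above WT at 4 months by the same amount, 1.21 (SE 0.06) for libraries labelled AKO and 1.21 (SE 0.08) for vehicle libraries. None of the 12 GABA-A receptor subunit genes tested passed between the lines. Nnt, the mitochondrial transhydrogenase that makes NADPH, had 10.46, 10.51 and 10.59 in libraries labelled AKO, a narrow range, against 9.63, 10.08 and 10.61 in vehicle libraries. It rose by 0.40 (SE 0.09, adjusted p = 0.017). Vehicle replicates 10, 11 and 16 stood at 10.44 to 10.61, level with the libraries labelled AKO, and the other 7 vehicle libraries at 9.63 to 10.09. WT libraries at 4 months lay at 9.64 to 9.92. The Nnt difference was 0.24 without vehicle replicates 1, 3, 5 and 40 and 0.15 with the region covariates, and its call was lost in both. As background, the C57BL/6J substrain is known to carry variants that lower Nnt and Gabra2 expression. The labels give no strain, and its part in these values was not tested.

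Chromosome neighbourhoods were counted for the same reason, with positions from the RefSeq annotation of GRCm38.p6. Within 10 Mb of Iapp, 5 of 88 other tested genes were called (5.68%), close to the 6.72% of all genes. On distal X, Erdr1, G530011O06Rik and Mid1 were all lower in libraries labelled AKO, and 7 of the 44 other tested genes within 10 Mb of Erdr1 were called (15.9%). Erdr1, in the pseudoautosomal region that X and Y share, had 7.67, 7.92 and 9.01 in libraries labelled AKO and 9.19, 9.72 and 10.43 in vehicle libraries, with no overlap (difference -1.61, SE 0.19, adjusted p = 0.00012). Mid1, a ubiquitin ligase gene that spans the pseudoautosomal boundary in mice, had 6.64, 7.09 and 7.69 in libraries labelled AKO and 7.45, 7.79 and 9.81 in vehicle libraries (difference -0.97, SE 0.26, adjusted p = 0.032). Reads of this region can be shared between X and Y copies. Of 5 tested genes on Y none was called, among them Ddx3y, Kdm5d, Uty and Eif2s3y, whose differences ran between -0.01 and 0.23. Across 235 windows of 10 Mb with at least 20 tested genes, the median share called was 6.4% and the highest 23.8%. Chromosome X had the highest share of the chromosomes other than Y and unplaced genes, 10.4%.

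Most myelin genes tested were called higher in libraries labelled AKO. Oligodendrocytes wrap axons in myelin, a membrane rich in galactolipid, cholesterol and a few abundant proteins. Of 17 tested markers of myelinating oligodendrocytes, 10 rose (58.8%, against 3.84% of all genes tested), none fell, and the median difference was 0.47, against 0.01 over all genes. Klk6, a secreted protease of oligodendrocytes, had 6.78, 7.17 and 7.87 in libraries labelled AKO and 4.64, 6.33 and 6.70 in vehicle libraries, with no overlap (difference 1.11, SE 0.21, adjusted p = 0.0051). Ugt8a, which makes the galactolipid of myelin, had 10.52, 10.76 and 11.08 in libraries labelled AKO, against 9.70, 10.11 and 10.74 in vehicle libraries (difference 0.62, SE 0.12, adjusted p = 0.0067). Most vehicle libraries lay below the lowest library labelled AKO, and the highest reached into that range.

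Among the myelin membrane proteins, Mag rose by 0.47 (SE 0.13, adjusted p = 0.036) and Mog by 0.48 (SE 0.14, adjusted p = 0.042). Trf, the transferrin gene, rose by 0.49 (SE 0.11, adjusted p = 0.016), and Ermn, Gjb1, Aspa and Ppp1r14a also passed. Mbp (0.43), Mal (0.32), Cnp (0.34) and Cldn11 (0.35) had positive differences that did not pass. Of 12 precursor markers, Olig1 and Cspg5 rose, by 0.22 and 0.16 (16.7%, against 3.84% of all genes tested). The list's median was 0.09. Without vehicle replicates 1, 3, 5 and 40, Cspg5 lost its call (0.12, SE 0.04). Against WT at 4 months, Ugt8a differed by -0.17 (SE 0.06, adjusted p = 0.18) in libraries labelled AKO and by -0.79 (SE 0.12, adjusted p = 0.00068) in vehicle libraries. Vehicle replicates 1, 3, 5 and 40 had the lowest myelin sums, so leaving them out shrinks myelin differences by construction. Without them, the count of myelin markers that rose was 4 of 17 with a median of 0.21, and these were Klk6, Ugt8a, Ermn and Ppp1r14a. It ran from 7 to 16 of 17 as single libraries were left out. With the striatal list level alone as covariate it was 0 of 17 with a median of 0.16, and the part of sampled region in the result was not tested further.

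**Figure D4:**
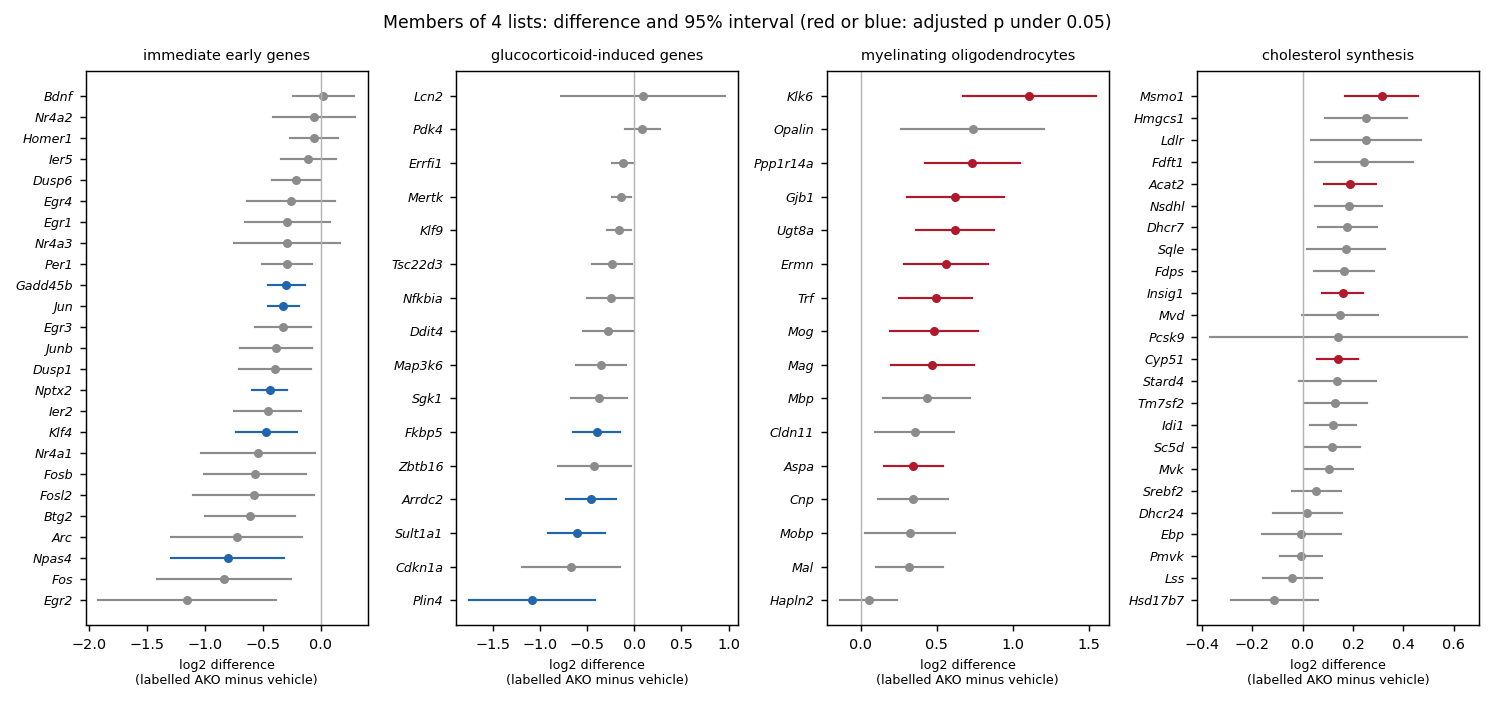
Log2 difference, libraries labelled AKO minus vehicle, with its 95% interval for the members reported of the immediate early, glucocorticoid-induced, myelinating oligodendrocyte and cholesterol synthesis lists; red and blue mark members past adjusted p 0.05, grey those that did not pass. All myelin markers shown lie above 0 and 24 of 25 immediate early genes lie below 0.

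Several genes of the striatum and of cholinergic neurons were called higher in libraries labelled AKO. Striatal projection neurons are the dopamine-responsive output cells of the striatum, and cholinergic neurons lie in the striatum and basal forebrain. Of 17 tested striatal markers, 3 rose (17.6%, against 3.84% of all genes tested), namely Tac1, Gpr6 and Rarb. None fell, and the median difference was 1.35. Tac1, the substance P precursor, had 10.68, 12.03 and 12.21 in libraries labelled AKO and 8.67, 10.73 and 12.03 in vehicle libraries (difference 1.42, SE 0.37, adjusted p = 0.025). The vehicle libraries spread over more than 3 log2 units, and the groups overlapped. Drd1 (1.35, SE 0.41) and Drd2 (1.93, SE 0.68), the dopamine receptors, did not pass. Lhx8, a transcription factor of cholinergic neurons, had 4.27, 6.68 and 8.37 in libraries labelled AKO and 0, 4.42 and 7.30 in vehicle libraries (difference 3.11, SE 0.86, adjusted p = 0.035). Chat, which makes acetylcholine, rose by 2.42 (SE 0.71, adjusted p = 0.043), and the choline transporter Slc5a7 by 2.06 (SE 0.54, adjusted p = 0.027). Vehicle replicates 1, 3, 5 and 40 had the lowest striatal sums, so leaving them out shrinks striatal differences by construction. Without them, 0 of 17 striatal markers passed (1 to 13 with single libraries left out) and their median was 0.39. Tac1 (0.64, SE 0.28), Gpr6 (0.67, SE 0.36), Rarb (0.37, SE 0.21), Chat (0.93, SE 0.49), Lhx8 (1.34, SE 0.69) and Slc5a7 (1.04, SE 0.49) all lost their calls in that setting. Other genes among the largest rises were Slc10a4 (2.17), the notch ligand homologue Dlk1 (2.09), the neurotensin precursor Nts (1.79) and Six3os1 (3.02), and Dsg1c, a desmosomal cadherin (3.48, SE 0.80, adjusted p = 0.016), all with overlapping groups. These differences, without vehicle replicates 1, 3, 5 and 40, were 1.13 for Slc10a4, 1.58 for Dlk1, 1.04 for Nts, 1.15 for Six3os1 and 1.63 for Dsg1c, and Dsg1c alone of these 5 kept its call.

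Motile cilia line the ventricles on ependymal cells. Of 11 tested cilia genes, 3 rose (27.3%, against 3.84% of all genes tested), none fell, and the median was 0.68. Ccdc153 had 4.97, 6.23 and 7.09 in libraries labelled AKO and 0, 2.14 and 6.69 in vehicle libraries (difference 3.24, SE 0.73, adjusted p = 0.013). Its vehicle median was a few reads, so it passed the read filter mainly through the libraries labelled AKO, and its adjusted p is no separate support. Mapk15, a kinase of the ciliary base, rose by 3.02 (SE 0.51, adjusted p = 0.0021) and Zmynd10, an assembly factor of dynein arms, by 0.75 (SE 0.16, adjusted p = 0.0093). Foxj1, the master regulator of motile cilia, differed by 0.70 (SE 0.24, adjusted p = 0.077). Of 12 tested without vehicle replicates 1, 3, 5 and 40, 3 passed with a median of 0.73, and Ccdc153 (2.40, SE 0.86) lost its call. With the region covariates 0 of 11 passed (median 0.41), with the myelin list alone 0 and with the striatal list alone 1. Summed cilia reads were low, 1051 to 1713 in libraries labelled AKO and 777 to 1395 in vehicle libraries. In the choroid plexus list Clic6 alone rose (1.84, SE 0.41, adjusted p = 0.013), a call lost without vehicle replicates 1, 3, 5 and 40 (1.32, SE 0.43) and with the region covariates (0.80, SE 0.42), while Ttr, its defining transcript, differed by -0.98 (SE 0.69, adjusted p = 0.42). The 8 tested olfactory mucosa markers had a median of 1.86 and none passed. The 14 olfactory bulb markers (median -0.25) and the 13 leptomeningeal fibroblast markers (median 0.36) held no gene that passed either.

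Immediate early genes are switched on in neurons within minutes of activity. Of 25 tested, 5 fell (20%, against 2.88% of all genes tested), none rose, 24 had a negative difference, and the median was -0.39. The promoters of many such genes carry the cAMP response element, whose core reads TGACG. Of the 20 members with a promoter in RefSeq (GRCm38.p6, 300 bases around the start), 15 held TGACG on either strand (75.0%), against 33.7% of the promoters of 11976 tested genes. The full element TGACGTCA occurred in 2 of 20 (10%), against 3.41%, and always overlaps the core. Of the 4 members that fell and had a promoter, Npas4 and Klf4 held the core, and these are shown for that reason, with the core (TGACG, or CGTCA on the other strand) in capitals. The Npas4 window is chr19:4989922-4990221, minus strand, with 2 matches, and the Klf4 window is chr4:55532426-55532725, minus strand, with 1. The windows of Jun and Gadd45b held none. A match is a run of letters and not a measured binding site.
Npas4: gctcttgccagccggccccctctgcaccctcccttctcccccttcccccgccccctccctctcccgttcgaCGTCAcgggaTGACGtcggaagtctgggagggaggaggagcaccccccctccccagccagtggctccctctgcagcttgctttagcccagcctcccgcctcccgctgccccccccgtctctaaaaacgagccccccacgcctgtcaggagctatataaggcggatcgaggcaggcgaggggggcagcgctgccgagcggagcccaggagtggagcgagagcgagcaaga
Klf4: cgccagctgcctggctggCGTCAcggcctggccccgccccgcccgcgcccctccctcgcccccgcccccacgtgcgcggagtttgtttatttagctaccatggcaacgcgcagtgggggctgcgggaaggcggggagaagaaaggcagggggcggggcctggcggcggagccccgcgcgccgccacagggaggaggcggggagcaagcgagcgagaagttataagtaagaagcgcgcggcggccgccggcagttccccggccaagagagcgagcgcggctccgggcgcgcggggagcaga

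Npas4, a transcription factor induced by calcium entry at synapses, had 7.47, 8.65 and 9.11 in libraries labelled AKO and 8.49, 9.23 and 10.20 in vehicle libraries, a difference of -0.80 (SE 0.23, adjusted p = 0.043). The groups overlapped over part of their range. Nptx2, a secreted pentraxin that gathers AMPA receptors, had 11.21, 11.49 and 11.68 in libraries labelled AKO and 11.68, 11.90 and 12.21 in vehicle libraries, and the groups met only at their edges (difference -0.44, SE 0.07, adjusted p = 0.0017). Jun, a subunit of the AP-1 factor, fell by 0.32 (SE 0.07, adjusted p = 0.0073). Gadd45b fell by 0.30 (SE 0.08, adjusted p = 0.027) and Klf4 by 0.47 (SE 0.13, adjusted p = 0.032). Fos (-0.83, SE 0.28, adjusted p = 0.075), Arc (-0.73, SE 0.27, adjusted p = 0.11) and Egr1 (-0.29, SE 0.18, adjusted p = 0.34) did not pass, and Bdnf differed by 0.02 (SE 0.13). Beside WT at 4 months, Npas4 differed by -1.48 (SE 0.33, adjusted p = 0.039) in libraries labelled AKO and by -0.68 (SE 0.34, adjusted p = 0.25) in vehicle libraries. Without vehicle replicates 1, 3, 5 and 40, 3 of 25 fell, the median was -0.22 and Npas4, Gadd45b and Klf4 lost their calls, and with the region covariates 0 passed and the median was -0.14. The count was 3 without AKO replicates 14 and 19 and ran from 2 to 14 as single libraries were left out.

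Glucocorticoids, the hormones of the stress response, induce a set of genes in brain. Of 16 tested, 4 fell (25%, against 2.88% of all genes tested), none rose, and the median was -0.32. Sult1a1, a sulfotransferase, had 8.12, 8.22 and 8.76 in libraries labelled AKO and 8.19, 9.11 and 9.46 in vehicle libraries, a difference of -0.61 (SE 0.15, adjusted p = 0.018). Most vehicle libraries lay above the libraries labelled AKO, with overlap at the low end. Plin4, a lipid droplet protein, fell by 1.09 (SE 0.32, adjusted p = 0.045), Arrdc2 by 0.46 (SE 0.13, adjusted p = 0.037) and Fkbp5, a co-chaperone of the glucocorticoid receptor, by 0.40 (SE 0.12, adjusted p = 0.046). Sgk1 (-0.38, SE 0.14) and Tsc22d3 (-0.24, SE 0.10) did not pass. Without vehicle replicates 1, 3, 5 and 40, 1 of 16 fell and the median was -0.18, and Sult1a1, Plin4, Arrdc2 and Fkbp5 all lost their calls. With the region covariates 0 passed and the median was -0.10, and without AKO replicates 14 and 19, 1 fell. None of the 19 clock genes passed, and their median was -0.01. Dbp, a clock output gene, differed by 0.32 (SE 0.16) and Per1, which is also in the immediate early list, by -0.29 (SE 0.10).

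Neurons and glia make their own cholesterol. Of 25 tested genes of its synthesis, 4 rose (16%, against 3.84% of all genes tested), none fell, 21 had a positive difference, and the median was 0.14. Msmo1, a sterol oxidase, had 11.91, 12.03 and 12.12 in libraries labelled AKO and 11.19, 11.77 and 11.92 in vehicle libraries, so that the groups barely touched (difference 0.31, SE 0.07, adjusted p = 0.012). Acat2 rose by 0.19 (SE 0.05, adjusted p = 0.029), Insig1, which holds the sterol sensor in the endoplasmic reticulum, by 0.16 (SE 0.04, adjusted p = 0.020) and Cyp51 by 0.14 (SE 0.04, adjusted p = 0.040). Summed reads of the list were 75801 to 82501 in libraries labelled AKO and 56034 to 79209 in vehicle libraries. Without vehicle replicates 1, 3, 5 and 40, 3 rose, 1 fell and the median was 0.07. Acat2 and Cyp51 lost their calls in that setting. Without AKO replicates 14 and 19, 2 rose. With the region covariates none rose and the median was 0.05.

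Chaperone and protein folding genes gave similar counts. Of 17 genes of the cytosolic chaperone list, which also holds the mitochondrial Hspe1, 4 rose (23.5%, against 3.84% of all genes tested). None fell, and the median was 0.06. Hspe1, the mitochondrial co-chaperonin, had 11.23, 11.31 and 11.54 in libraries labelled AKO and 10.94, 11.07 and 11.44 in vehicle libraries (difference 0.25, SE 0.06, adjusted p = 0.013). Cryab, a small heat shock protein also made by oligodendrocytes, rose by 0.35 (SE 0.08, adjusted p = 0.018), Chordc1 by 0.16 and Dnaja1 by 0.12. The heat-inducible Hspa1a differed by 0.00 (SE 0.08). Of 24 endoplasmic reticulum stress genes, 4 rose (16.7%, against 3.84% of all genes tested). These were Chac1 (0.30, SE 0.07, adjusted p = 0.016), Asns (0.26), Atf4 (0.23) and Hsp90b1 (0.12). Chac1 and Asns are targets of the transcription factor ATF4, while the chaperone Hspa5, the classical marker of that stress, differed by -0.03 (SE 0.06). Without AKO replicates 14 and 19, 4 of the chaperones and 1 of the endoplasmic reticulum stress genes rose. Cryab and Chac1 lost their calls without vehicle replicates 1, 3, 5 and 40, and with the striatal or the myelin list level as covariate no gene of either list passed.

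Neuronal genes changed in few members. Cort, the cortistatin precursor of some interneurons, had 7.67, 7.88 and 8.17 in libraries labelled AKO and 6.55, 7.10 and 8.09 in vehicle libraries, a difference of 0.78 (SE 0.15, adjusted p = 0.0053). Its difference was 0.85 without vehicle replicates 1, 3, 5 and 40. Among 16 cortical neuropeptides, Cort, Tac1 and Nts rose (18.75%, against 3.84% of all genes tested). Vip and Tac2 fell, by 0.28 and 0.35 (12.5%, against 2.88% of all genes tested). Of these 5, Cort alone kept its call without vehicle replicates 1, 3, 5 and 40. Cux2, a marker of upper cortical layers, fell by 0.34 (SE 0.07, adjusted p = 0.012), the only one of 16 excitatory markers to pass. Htr3a, a serotonin receptor of interneurons, fell by 0.56 (SE 0.11, adjusted p = 0.0060). Of 16 inhibitory interneuron markers, 2 fell (12.5%, against 2.88% of all genes tested) and none rose. Of 30 synaptic vesicle and glutamate receptor genes, 2 fell (6.67%, against 2.88% of all genes tested). None rose, and the median was -0.09. Vamp2, a vesicle fusion protein, fell by 0.17 (SE 0.03, adjusted p = 0.0079). Vamp2 had 15.44 to 15.61 in libraries labelled AKO and 15.57 to 15.78 in vehicle libraries, a narrow spread on both sides.

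Among glia and vessels, the astrocyte genes Gjb6 and Fgfr3 fell, by 0.35 and 0.19, and Hes5 rose by 0.42, with a median of 0.07 over 15 markers. Of these markers 13.3% fell, against 2.88% of all genes tested, and 6.67% rose, against 3.84%. The microglial gene Fcrls had 10.17, 10.29 and 10.55 in libraries labelled AKO and 9.47, 9.96 and 10.17 in vehicle libraries, with no overlap (difference 0.43, SE 0.08, adjusted p = 0.0033). Aif1 rose by 0.35, and 14 of 16 microglial markers did not pass (12.5% rose, against 3.84% of all genes tested). Of 14 endothelial genes, Tie1 and Emcn rose by 0.31 and 0.34 (14.3%, against 3.84% of all genes tested). Of 12 pericyte and smooth muscle genes, the channel subunit Abcc9 alone passed and fell by 0.35 (8.33%, against 2.88% of all genes tested). Interferon-stimulated genes (24 tested) held none that passed. In the insulin and IGF list Ide and Akt2 rose, by 0.37 and 0.19 (2 of 22 or 9.09%, against 3.84% of all genes tested). Insr, Irs1 and Irs2 did not pass. Gjb6, Hes5, Aif1, Tie1 and Akt2 lost their calls without vehicle replicates 1, 3, 5 and 40. The amyloid processing list held 18 tested genes, with a median of 0.01. Bace1, the beta secretase, fell by 0.14 (SE 0.03, adjusted p = 0.016), 5.56% of the list against 2.88% of all genes tested. Ide, which is also in this list, and Clu, a carrier of amyloid beta, rose (11.1%, against 3.84% of all genes tested). The Clu difference was 0.28 (SE 0.07, adjusted p = 0.027). Alas2, the erythroid form of the first enzyme of heme synthesis, had 6.60, 7.53 and 8.34 in libraries labelled AKO and 8.34, 9.11 and 10.04 in vehicle libraries (difference -1.44, SE 0.21, adjusted p = 0.00071). The other 3 tested erythroid markers did not pass, and 4 haemoglobin genes are listed at 0 in all 20 libraries.

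The oxidative phosphorylation, glycolysis, antigen presentation and complement lists held 1 or 2 called genes each. Over all genes tested, 3.84% rose and 2.88% fell. Of 43 nuclear oxidative phosphorylation subunits, Ndufb3 rose by 0.18 (SE 0.05, adjusted p = 0.035), and the median was 0.05. Of 20 glycolysis genes, the neuronal glucose transporter Slc2a3 fell by 0.11 (SE 0.03, adjusted p = 0.040) and the enolase Eno2 by 0.13 (SE 0.04, adjusted p = 0.042). The immunoproteasome subunit Psmb10 fell by 0.19 (SE 0.05, adjusted p = 0.025), the 1 of 18 antigen presentation genes to pass. C3, the central complement component, had 3.62, 5.09 and 6.27 in libraries labelled AKO and 0, 3.48 and 4.56 in vehicle libraries (difference 1.62, SE 0.48, adjusted p = 0.045). Clec12a, a lectin receptor of myeloid cells, rose by 1.95 (SE 0.51, adjusted p = 0.027). Among the larger falls were the adhesion receptor Adgrf4 (-0.90, SE 0.20, adjusted p = 0.013), Tmem40 (-0.74, SE 0.20, adjusted p = 0.031) and the TNF receptor family member Tnfrsf8 (-0.85, SE 0.25, adjusted p = 0.046). None of 9 thalamus and hypothalamus markers passed, with a median of 0.15. Slc2a3, Eno2 and Adgrf4 lost their calls without vehicle replicates 1, 3, 5 and 40.

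**Figure D5:**
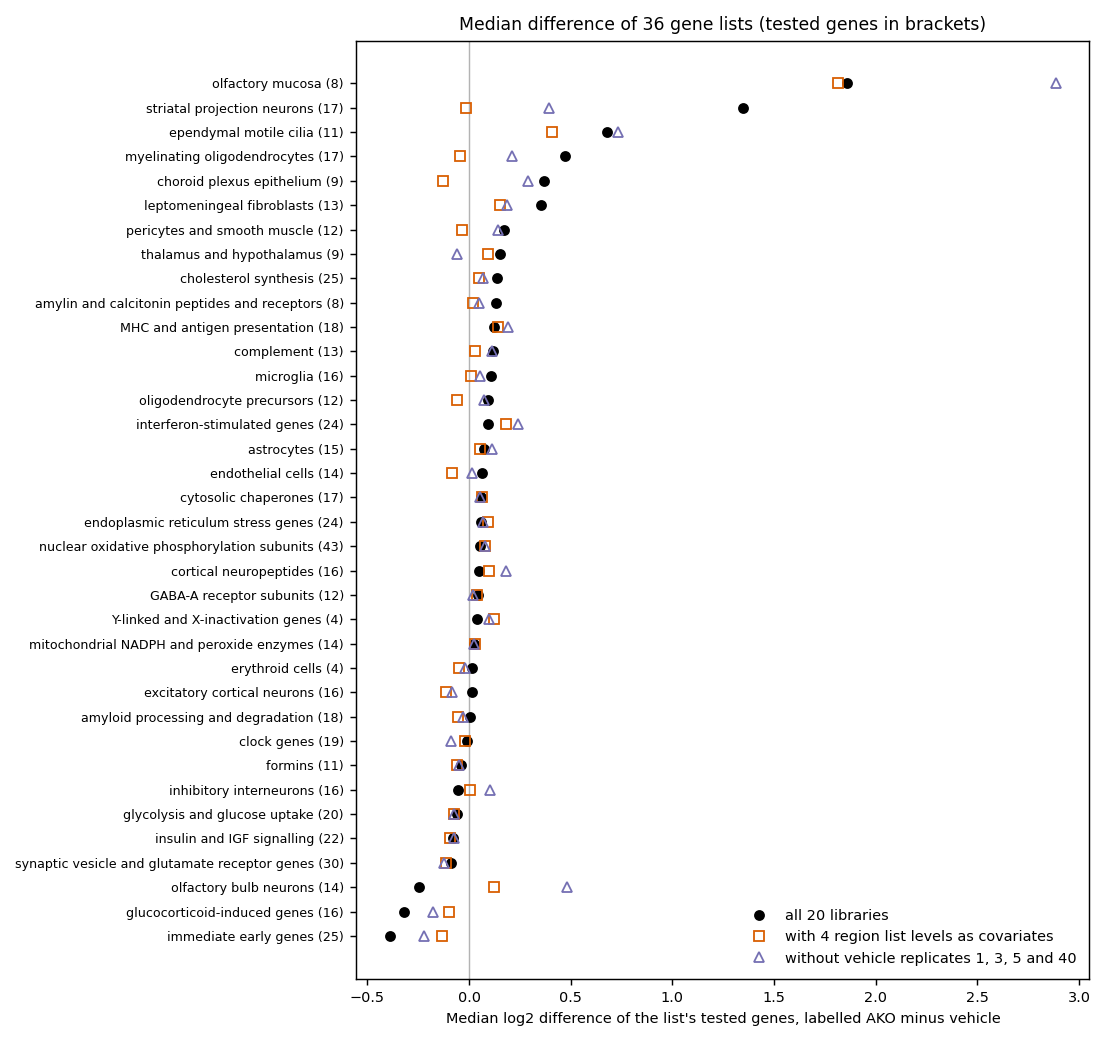
Median log2 difference, libraries labelled AKO minus vehicle, over the tested genes of each of 36 lists, with all 20 libraries (black), with the 4 region list levels as covariates (orange squares) and without vehicle replicates 1, 3, 5 and 40 (purple triangles). Striatal, myelin, immediate early and glucocorticoid medians move toward 0 in both alternatives, while the cilia median stays above 0.4. For the striatal and myelin lists both moves follow by construction, since both alternatives were built on those levels.

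Several of the 45 genes without overlap lie outside the lists, and those named here were chosen after their values were seen. Yme1l1, a protease of the inner mitochondrial membrane, had 12.31 to 12.41 in libraries labelled AKO and 12.12 to 12.23 in vehicle libraries (difference 0.19, SE 0.02, adjusted p = 0.00017). Oat, a mitochondrial aminotransferase, had 11.96 to 12.22 in libraries labelled AKO and 11.67 to 11.88 in vehicle libraries (difference 0.29, SE 0.04, adjusted p = 0.00013). Bex1, an adaptor protein of neurons, had 11.46 to 11.72 in libraries labelled AKO and 10.70 to 11.41 in vehicle libraries (difference 0.53, SE 0.07, adjusted p = 0.00020). Against WT at 4 months, Oat differed by 0.03 (SE 0.03) in libraries labelled AKO and by -0.25 (SE 0.03) in vehicle libraries, and Bex1 by 0.07 (SE 0.04) in libraries labelled AKO and by -0.46 (SE 0.07) in vehicle libraries. Lower in libraries labelled AKO without overlap were Cacna1g, a T-type calcium channel gene (-0.50, SE 0.08, adjusted p = 0.0020), the chromatin reader Brd2 (-0.26, SE 0.04, adjusted p = 0.0024) and the matrix protein gene Matn2 (-0.36, SE 0.05, adjusted p = 0.00069).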

How the data were processed

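Frontal cortex RNA of 20 mice was sequenced, and the tissue, diet, injection and library kit are given per the labels' protocols. The authors deposited log2 values for 24495 genes in 50 columns, of which 1 matched no sample and was not used. The aligner, counter, genome build and scaling method were not given in the sources used here. The low values up to 200 reads are whole multiples of 1 step per library (99.92% to 100% within 0.1 of a whole read), so the deposited log2 value is a read count over a size factor, plus 1. It understates changes of genes with few reads. Values of 7 genes were not whole and were left out, and 27 symbols turned into dates were restored from gene IDs.

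Genes were tested that reached the equivalent of 10 reads in at least 10 libraries and 15 reads in total, 15174 in all. A gene can pass this filter through the libraries of a single group, and its adjusted p is then no separate support. The test was limma 3.58.1 in R 4.3.3 on the deposited log2 values, with an intensity trend and robust shrinkage, fitted to the 20 libraries alone, two-sided, with Benjamini-Hochberg adjustment over all genes tested at 0.05. Every SE and adjusted p above comes from it. The fit was tested on simulated data. The simulated libraries varied independently, without shared regional content, so that test does not bear on calls that move with the regional sums. Nothing says whether replicates are separate litters or batches, so p-values reflect only how far these libraries spread, which may be technical. The closest pairs within a group differed by 8.34 and 9.98 in chi-square per gene, where counting noise gives about 1, and all libraries were kept.

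The members and the 36 gene lists were chosen with earlier results of these data known. Lists are described by counts and medians, without a test. Genes were named by rule: Iapp, Gabra2, Nnt and Fmn1, the 12 genes that rose most and the 12 that fell most past the threshold, with at least 1 read per M reads and no predicted or pseudogene symbol, and up to 3 members of each list with the smallest p past the threshold. Other genes named were chosen after their values were seen. A few list members are counted but not reported here by name. Promoter sequences come from RefSeq. Alternatives were another test, filter, pseudocount, scaling, fit, covariates and libraries left out. The omission of vehicle replicates 1, 3, 5 and 40, or 1 and 3, and single covariates were chosen after seeing the data.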

Additional observations from a re-analysis of the deposited data

Results flagged for a closer look

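In 14 of 146 pairs of a named gene and a group, a single library lay far from the other 9 of its group, by its gap to the nearest library as a share of the group's range. Chance flags about 1 in 20 groups. Of the 14, 4 were in libraries labelled AKO and 10 in vehicle libraries. All values are log2 levels.

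Among libraries labelled AKO, Iapp was highest in replicate 16 at 6.169 (next 5.862), Mapk15 highest in replicate 14 at 7.433 (next 5.804), Fmn1 lowest in replicate 6 at 7.555 (next 7.991) and Adgrf4 lowest in replicate 8 at 4.546 (next 5.226).

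Among vehicle libraries, replicate 16 was apart in 4 genes. It held the single Iapp read, at 1.159 where the others stood at 0. It was lowest in Wdfy1 at 9.261 (next 10.69), in Ide at 10.9 (next 11.47) and in Gabra2 at 11.32 (next 11.87). Vehicle replicate 3 was apart in 3 genes, lowest in Fmn1 at 7.949 (next 9.341) and in Acat2 at 10.47 (next 10.78), and highest in Hspe1 at 11.44 (next 11.18). Vehicle replicate 5 was lowest in Clec12a at 0 (next 3.382) and in C3 at 0 (next 2.488). Fgfr3 was highest in vehicle replicate 11 at 12.76 (next 12.53).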

How the results depend on the processing

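The 1019 called genes (582 higher and 437 lower in libraries labelled AKO) numbered 607 to 1546 when single libraries were left out, lowest without AKO replicate 8 and highest without vehicle replicate 3, with 344 to 806 higher and 261 to 740 lower. The count fell by over 1.5 times without AKO replicate 8 (607), 6 (671), 19 (620), 7 (659) or 16 (673) and without vehicle replicate 40 (644) or 11 (667), and grew by as much without vehicle replicate 3. It was 2449 (1249 higher, 1200 lower) with sample quality weights in limma-voom and 1079 without them. It was 475 (296, 179) without AKO replicates 14 and 19, 600 (342, 258) without vehicle replicates 39, 40 and 41, 2674 (1243, 1431) without vehicle replicates 1 and 3, and 1335 (577, 758) without vehicle replicates 1, 3, 5 and 40. With list levels as covariates it was 19 (11, 8) for all 4, 82 (50, 32) for the striatal, 31 (20, 11) for the myelin, 376 (223, 153) for the choroid plexus and 1709 (931, 778) for the olfactory bulb list alone. Scaling to total reads gave 652 higher and 286 lower, and to the upper quartile 693 and 330, so that 69.5% and 67.7% of calls were higher, against 57.1%. The other settings kept the counts within 1.5 times, and the cause of the changes was not tested.

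Genes without overlap (28 higher, 17 lower) numbered 29 to 57 higher and 17 to 30 lower when single libraries were left out. The largest counts came without vehicle replicate 3, and 51 were higher without vehicle replicate 16. They numbered 51 and 47 without vehicle replicates 39, 40 and 41, 74 and 92 without 1 and 3, and 86 and 108 without 1, 3, 5 and 40; fewer libraries overlap less by construction.

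Iapp, Erdr1, Alas2, Fmn1 and Cd59a kept direction and call in every alternative that gave a value. Chat, Nts, Npas4, Plin4 and Hsp90b1 lost their calls in 21, 21, 23, 27 and 23 of 41 settings. Gabra2 (-0.01) turned positive at 0.0065 with quality weights, 0.0067 and 0.0076 with total and upper quartile scaling, 0.14 with all region covariates, 0.027 and 0.13 with the striatal and myelin list alone, 0.034 without vehicle replicates 39, 40 and 41, 0.056 without 1, 3, 5 and 40 and 0.013 without 1 and 3, and ran from -0.0701 to 0.0131 with single libraries left out. No paired analysis was possible because the only title number that occurs in both groups is 16. With 10 libraries a group, genes of under 10 reads were not tested.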
